A study of Homo sapiens with 12 samples.

Results

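The genes described here are HSF1, which encodes heat shock factor 1, and 9 genes of cytosolic heat shock proteins, namely HSPA1A, HSPA1B, HSPA6, HSPA8, HSPA4L, HSPH1, HSP90AA1, HSPB1 and DNAJB1. The 10 genes were chosen by symbol, not by a measured value, but with earlier results of these data known. They make up 10 of the 29607 genes in a table of transcript levels from KMS11, an established human multiple myeloma line. The study, whose title links the serine/threonine kinase STK17B to ferroptosis and drug resistance in myeloma, changed the amount or activity of STK17B in these cells. It comprises 12 poly(A) RNA libraries in 6 groups of 2. The shControl cells carried a control hairpin and were labelled WT and untreated. The sh1 and sh2 cells each carried a different hairpin against STK17B and were untreated. The inhibitor cells were labelled WT and received an STK17B inhibitor, and the series design places it in cells with the control hairpin. The Vector cells carried the control vector, were labelled WT and were untreated, and the overexpression cells carried an STK17B cDNA and were untreated. Every group is the same cell line carrying a transduced construct. The labels give no inhibitor name, dose or time, no hairpin sequence and no promoter for the cDNA, and although the series design speaks of a vehicle, no library is labelled as one, so the inhibitor was set against shControl. Solvent, other targets of the compound and STK17B itself cannot be told apart there. Nothing in the labels says that the replicates of a group were separate cultures, so p-values measure only the spread between libraries.

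HSF1 is the main transcription factor of the heat shock response. In unstressed cells chaperones hold it inactive, and when misfolded protein draws the chaperones away it forms trimers, binds heat shock elements (repeats of GAA in alternating orientation) and raises transcription of chaperone genes. This control acts largely on the HSF1 protein, so its transcript need not move when its targets do. HSP70 proteins bind exposed stretches of unfolded proteins in a cycle driven by ATP, J proteins such as DNAJB1 start that cycle, HSP110 proteins such as HSPH1 release the nucleotide, HSP90 finishes the folding of kinases and receptors, and small heat shock proteins such as HSPB1 hold unfolded proteins without ATP. Myeloma cells make large amounts of immunoglobulin and are known to lean on protein quality control.

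Promoter sequences are shown because 4 of the genes were high together in 1 group and because the heat shock element is the feature that heat-inducible chaperone genes have in common. RefSeq promoter windows of GRCh38.p14, from 250 bases before to 50 after each start site, were searched on both strands for TTCNNGAANNTTC (or its reverse complement GAANNTTCNNGAA), which spans 3 units, and for the 2-unit forms GAANNTTC and TTCNNGAA, which the 3-unit form contains. Capitals mark the matches, and each sequence reads 5′ to 3′ on the strand of its gene. The first 4 lines are the genes that were high in Vector, and the others are HSPA8, HSP90AA1 and HSPB1.
HSPA6, chr1:161524330-161524508, plus strand: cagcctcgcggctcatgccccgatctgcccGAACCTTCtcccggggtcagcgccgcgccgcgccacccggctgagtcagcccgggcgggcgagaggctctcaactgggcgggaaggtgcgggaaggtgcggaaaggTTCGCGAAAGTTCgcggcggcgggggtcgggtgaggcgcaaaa
HSPA1A, chr6:31815407-31815463, plus strand: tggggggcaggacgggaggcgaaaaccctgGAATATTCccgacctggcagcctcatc
HSPA1B, chr6:31827603-31827670, plus strand: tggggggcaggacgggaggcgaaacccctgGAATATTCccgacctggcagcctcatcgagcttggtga
DNAJB1, chr19:14518421-14518504, minus strand: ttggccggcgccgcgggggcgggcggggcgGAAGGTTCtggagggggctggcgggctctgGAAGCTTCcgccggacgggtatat
HSPA8, chr11:123062346-123062374, minus strand: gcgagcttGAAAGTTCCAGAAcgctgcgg
HSPA8, chr11:123062171-123062199, minus strand: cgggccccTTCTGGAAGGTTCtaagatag
HSP90AA1, chr14:102087112-102087140, minus strand: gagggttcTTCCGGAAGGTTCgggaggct
HSPB1, chr7:76302461-76302528, plus strand: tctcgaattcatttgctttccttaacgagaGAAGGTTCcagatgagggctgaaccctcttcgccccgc

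The 3-unit form was found in the windows of HSPA6 (bases -74 to -62 from the start site), HSPA8 (-230 to -218 and -55 to -43) and HSP90AA1 (-88 to -76, at the start nearer the coding part). It occurs in 172 of 35116 promoter windows, or 0.490%. The 2-unit form alone was found for HSPA1A (-106 to -99), HSPA1B (-105 to -98), DNAJB1 (-77 to -70 and -47 to -40, and 1 to 8 at a start site further into the gene), HSPB1 (-182 to -175) and HSPA4L (-170 to -163), and either 2-unit form occurs in 13.5% of windows. HSPH1 had no match in its window, and no sequence is shown for HSF1. Over their common 57 bases the HSPA1A and HSPA1B stretches differ at 1 position, A25C, counted from the 5′ end with the HSPA1A base first. A match is a description of letters and does not show that HSF1 was bound there, and neither the 3-unit nor the 2-unit form separates the genes by their pattern across groups.

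Before the results, some facts of the libraries bear on them. Values are TPM, which scale each library to the same total, and depth is not known. Libraries had from 16577 to 17354 genes with a value over 0. Plasma cell and myeloma markers were found for 9 of 10 symbols, and their summed level ran from 2330 to 3731 TPM, lowest in sh1 (2330 and 2354 TPM) and highest in Vector (3713 and 3731 TPM). Markers that define other cell types were at or near 0, with CD3D, LUM and CDH5 at 0 in all 12 libraries and the 3 B cell markers summing to at most 1.02 TPM, while CD3E reached 7.74 TPM, EPCAM 7.99 TPM and KRT18 7.97 TPM. STK17B itself stood at 27.1 and 27.4 TPM in shControl, between 10.9 and 14.7 TPM in the 4 hairpin libraries, at 24.9 and 22.4 TPM with the inhibitor, at 28.2 and 31.5 TPM in Vector and at 94.1 and 84.5 TPM with overexpression, so each label of a hairpin or cDNA matched its transcript. The mean of the hairpins was 0.485 of the shControl mean. The columns of the shControl and Vector libraries carry no group name in the table. They were assigned because the number in each name equals a library number in the labels, which is an inference, and the fit was repeated with these columns exchanged.

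HSF1, a protein-coding gene on the plus strand of chromosome 8, was the steadiest of the 10 transcripts. It stood at 84.2 and 85.7 TPM in shControl, 92.8 and 88.1 TPM with sh1, 94.0 and 88.6 TPM with sh2, and 93.0 and 93.5 TPM with the inhibitor. Vector libraries held 89.9 and 84.9 TPM, and overexpression libraries 89.5 and 92.5 TPM. The highest library was 1.12-fold the lowest, against between 1.41-fold and 46.5-fold for the other 9 genes, and every neighbouring pair of groups in the order of means overlapped. The inhibitor libraries lay above both shControl libraries, and a difference of 0.13 on the log2(TPM + 1) scale (SE 0.043) passed the limma test with Benjamini-Hochberg adjustment (adjusted p = 0.033). That call was lost under 10 of 25 alternatives, among them quantile normalization (0.02) and the median of ratios (0.07), and without any 1 of the 4 libraries compared (adjusted p from 0.083 to 0.14). It was also lost with the control columns exchanged (0.09, adjusted p = 0.092). In the hairpins HSF1 was 0.10 above shControl and did not pass (adjusted p = 0.058). In overexpression against Vector it was at 0.06, and in Vector against shControl at 0.04, neither past the threshold and both of the other sign when scaled by the median of ratios (-0.05 and -0.06).

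**Figure D1:**
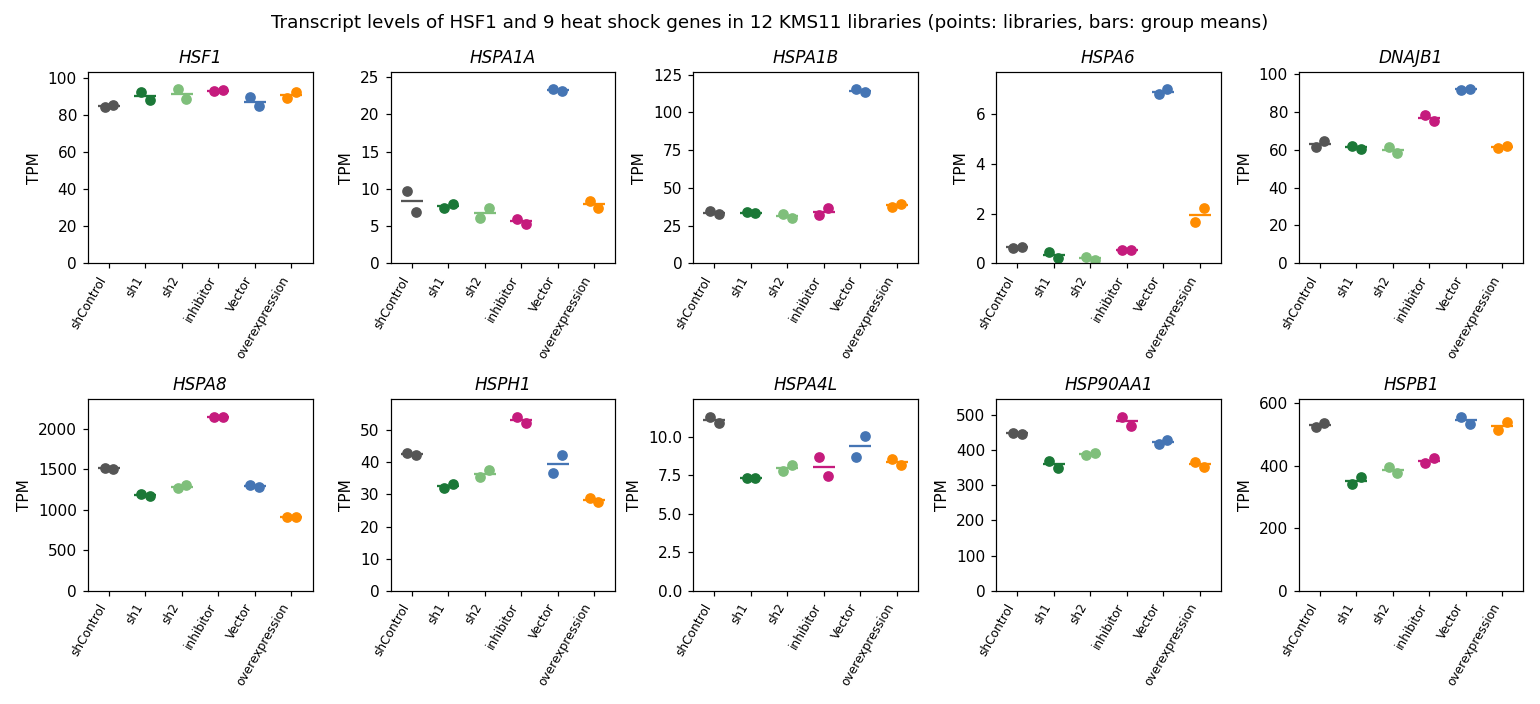
TPM of each of the 10 genes (vertical axes, each from 0) in the 12 libraries, by group (horizontal axes), with points for libraries and bars for group means. HSPA1A, HSPA1B, HSPA6 and DNAJB1 are highest in both Vector libraries, HSPA8, HSPH1 and HSP90AA1 are highest with the inhibitor, and HSF1 lies between 84.2 and 94.0 TPM throughout.

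The stress-inducible HSP70 genes were highest in Vector. HSPA1A (chromosome 6, 31815464 to 31817946, plus strand) and HSPA1B (chromosome 6, 31827735 to 31830255, plus strand), coordinates on GRCh38 as for all genes here, encode nearly the same HSP70 protein, the classic heat-induced form. HSPA1B stood at 34.6 and 32.8 TPM in shControl, 33.9 and 33.2 TPM with sh1, 32.4 and 29.9 TPM with sh2, 31.9 and 36.9 TPM with the inhibitor, 115 and 114 TPM in Vector and 37.6 and 39.4 TPM with overexpression. HSPA1A stood at 9.68 and 6.94 TPM in shControl, 7.50 and 7.92 TPM with sh1, 6.12 and 7.47 TPM with sh2, 5.90 and 5.35 TPM with the inhibitor, 23.4 and 23.2 TPM in Vector and 8.44 and 7.42 TPM with overexpression. For both genes the Vector libraries lay far above the 10 others, whose ranges were narrow by comparison. The mean TPM in Vector was 3.40-fold that of shControl for HSPA1B (log2 difference 1.74, SE 0.066, limma adjusted p = 9.7e-07) and 2.80-fold for HSPA1A (1.40, SE 0.134, adjusted p = 1.2e-04).

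Reads from HSPA1A and HSPA1B can be split wrongly between copies this alike, so each value alone is uncertain. Their sum, which such splitting does not change, was 139 and 137 TPM in Vector and between 37.4 and 46.8 TPM in the 10 other libraries. HSPA1A made up 12.7% to 21.9% of it. The sum rose by 1.69 log2 units in Vector over shControl and fell by 1.55 in overexpression against Vector. HSPA1A with the inhibitor is the case where the split matters, since the gene fell by 0.48 (SE 0.134, adjusted p = 0.019) while the summed pair was at -0.07 (adjusted p = 0.39). The HSPA1A call was also lost without shControl replicate 1 (-0.26, adjusted p = 0.13) and without inhibitor replicate 2 (-0.42, adjusted p = 0.096).

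HSPA6 (chromosome 1, 161524540 to 161526910, plus strand) encodes a strictly inducible HSP70 that most unstressed cells hardly express. It stood at 0.625 and 0.665 TPM in shControl, 0.449 and 0.233 TPM with sh1, 0.269 and 0.151 TPM with sh2 and 0.543 TPM in each inhibitor library. Its Vector libraries stood at 6.81 and 7.01 TPM and its overexpression libraries at 1.66 and 2.22 TPM. Only the Vector and overexpression libraries reached 1 TPM, so HSPA6 entered the test through these 4 libraries alone, and its difference between them and the rest is given as a description. The Vector mean was 10.7-fold the shControl mean (log2(TPM + 1) difference 2.27, SE 0.129), and the overexpression mean was 0.281 of the Vector mean. In the hairpins all 4 libraries lay below both shControl libraries (mean 0.275 against 0.645 TPM), a difference of -0.37 (limma adjusted p = 0.022). Every library compared there was under 1 TPM, so this too is given as a description. The call was lost without either shControl library, without sh1 replicate 2 or without sh2 replicate 2. HSPA7, a near-identical pseudogene beside it that could take some of its reads, was at 0 to 0.116 TPM.

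DNAJB1 (chromosome 19, 14514770 to 14529770, minus strand), the J protein that works with HSP70 in the heat shock response and helps to return HSF1 to its inactive state, was also highest in Vector. It stood at 61.4 and 64.7 TPM in shControl, 62.1 and 60.3 TPM with sh1, 61.1 and 58.4 TPM with sh2 and 61.0 and 62.0 TPM with overexpression. Above all of these were the inhibitor libraries at 78.1 and 75.3 TPM and, higher still, the Vector libraries at 91.6 and 91.8 TPM. DNAJB1 rose 1.45-fold in Vector over shControl (0.53, SE 0.039, adjusted p = 2.9e-05) and 1.22-fold with the inhibitor (0.28, SE 0.039, adjusted p = 5.1e-04). With the control columns exchanged the inhibitor difference turned to -0.26 (adjusted p = 4.4e-04). DNAJB1 was the only gene of the 10 that was high both in Vector and with the inhibitor, and the summed HSPA1A and HSPA1B level stayed at 37.8 and 42.2 TPM in the inhibitor libraries.

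The constitutive chaperone HSPA8 (chromosome 11, 123057489 to 123063230, minus strand), the housekeeping HSP70 called HSC70, made up 44.7% to 64.8% of the summed TPM of the 10 genes and ranked 108 of all 29607 genes in shControl. It stood at 1519 and 1495 TPM in shControl, 1197 and 1168 TPM with sh1, 1269 and 1298 TPM with sh2, 2143 and 2148 TPM with the inhibitor, 1305 and 1284 TPM in Vector and 908 and 915 TPM with overexpression. Replicates lay close together and no group overlapped another except Vector and sh2. HSPA8 rose 1.42-fold with the inhibitor (0.51, SE 0.022, adjusted p = 5.5e-07) and fell to 0.818 of shControl in the hairpins (-0.29, SE 0.019, adjusted p = 4.3e-06). It fell to 0.704 of Vector with overexpression (-0.51, SE 0.022, adjusted p = 7.5e-07), and Vector was itself below shControl (-0.22, adjusted p = 1.7e-04). The inhibitor and overexpression therefore mark the top and the bottom of its range.

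HSPH1 and HSP90AA1 followed nearly the same order of groups as HSPA8. HSPH1 (chromosome 13, 31134974 to 31162388, minus strand), an HSP110 exchange factor of HSP70, stood at 43.0 and 42.3 TPM in shControl, 32.0 and 33.2 TPM with sh1, 35.3 and 37.7 TPM with sh2, 54.3 and 52.3 TPM with the inhibitor, 36.8 and 42.3 TPM in Vector and 29.0 and 27.8 TPM with overexpression. It rose with the inhibitor (0.32, adjusted p = 0.0036), fell in the hairpins (-0.30, adjusted p = 0.0017) and fell with overexpression against Vector (-0.46, adjusted p = 4.9e-04). The Vector libraries of HSPH1 were the widest pair and overlapped shControl and sh2. HSP90AA1 (chromosome 14, 102080738 to 102139699, minus strand), the inducible HSP90, stood at 450 and 447 TPM in shControl, 368 and 350 TPM with sh1, 386 and 391 TPM with sh2, 496 and 470 TPM with the inhibitor, 416 and 429 TPM in Vector and 367 and 353 TPM with overexpression. It fell in the hairpins (-0.26, adjusted p = 1.2e-04) and with overexpression (-0.23, adjusted p = 0.0010). Its rise with the inhibitor was small (0.11, adjusted p = 0.042), lost under 10 alternatives and at -0.01 after quantile normalization.

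Over the 12 libraries Pearson's r of log2(TPM + 1) was 0.97 between HSPA8 and HSPH1 and 0.95 between HSPH1 and HSP90AA1, which describes 6 groups of 2 libraries that share their TPM scale. The genes outside the 10 whose pattern was most like that of HSPA8 were POP4, RRP12, PNO1, GATAD2A and ABCF2, each with r of 0.99 over 12 libraries among 9007 genes with a mean of at least 5 TPM. Those most like HSPB1 were EHD4, ADD2, AGAP1, MYOM2 and LRRC14B (r from 0.97 to 0.98). Those most like DNAJB1 were GOT1, GBF1, TRRAP, UQCRC2 and MTRR (0.89 to 0.91), and those most like HSF1 were LOC101060157, RUFY1, CCDC109B, AFG3L1P and HHEX (0.86 to 0.90).

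**Figure D2:**
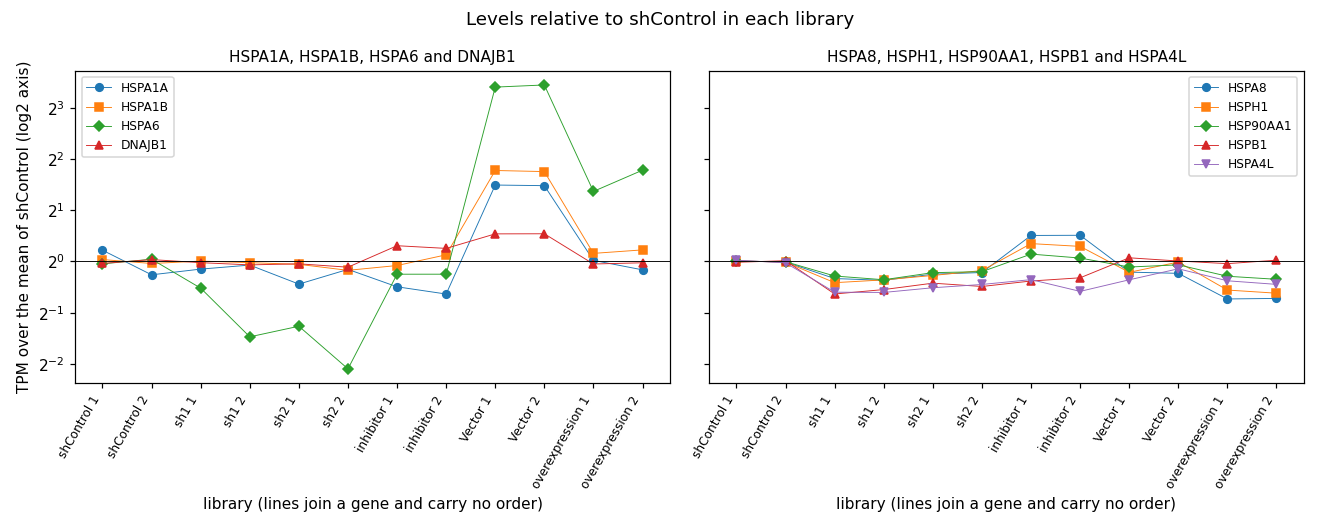
TPM of 9 genes in each library divided by the shControl mean of the gene (vertical log2 axis), with libraries on the horizontal axis and lines that only join the points of a gene. The left panel holds the genes that peak in Vector, and the right panel shows HSPA8, HSPH1 and HSP90AA1 rising to the inhibitor. Also on the right, HSPB1 is lower in the hairpins and the inhibitor, and HSPA4L is highest in shControl.

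HSPB1 had another pattern, lower in the hairpins and in the inhibitor libraries alike, while HSPA4L was highest in shControl. HSPB1 (chromosome 7, 76302544 to 76304295, plus strand) encodes HSP27, a small heat shock protein that holds unfolded proteins and binds actin filaments. It stood at 524 and 535 TPM in shControl, 341 and 362 TPM with sh1, 395 and 378 TPM with sh2, 407 and 425 TPM with the inhibitor, 557 and 533 TPM in Vector and 515 and 539 TPM with overexpression. The highest of the hairpin and inhibitor libraries was at 425 TPM and the lowest of the other libraries at 515 TPM. HSPB1 fell in the hairpins (-0.52, SE 0.036, adjusted p = 4.8e-06) and with the inhibitor (-0.35, SE 0.041, adjusted p = 2.1e-04). Overexpression stood at -0.05 against Vector and Vector at 0.04 against shControl, neither past the threshold. The fall with the inhibitor was smaller than that in the hairpins by 0.17 (adjusted p = 0.0027 for the difference), and by 0.04 after quantile normalization, where that difference did not pass.

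HSPA4L (chromosome 4, 127781821 to 127840733, plus strand), an HSP110-type relative of HSPA4, stood at 11.3 and 10.9 TPM in shControl, 7.34 and 7.31 TPM with sh1, 7.79 and 8.15 TPM with sh2, 8.70 and 7.42 TPM with the inhibitor, 8.68 and 10.1 TPM in Vector and 8.56 and 8.16 TPM with overexpression. Its 2 shControl libraries were the highest of the 12, and the ranges of the overexpression and Vector libraries each overlapped that of the inhibitor. It fell in the hairpins (-0.49, SE 0.073, adjusted p = 5.2e-04) and with the inhibitor (-0.42, SE 0.084, adjusted p = 0.0035), and the latter did not pass with the control columns exchanged (-0.20, adjusted p = 0.076). Vector was at -0.23 against shControl (adjusted p = 0.070), which did pass under quantile normalization (-0.37) and the median of ratios (-0.32). The summed plasma cell markers were also below shControl in the hairpins (2330 to 2691 TPM) and the inhibitor libraries (2671 and 2674 TPM), and their part in the HSPB1 and HSPA4L values was not tested. In bulk RNA, fewer cells with a transcript and less of it per cell cannot be told apart.

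**Figure D3:**
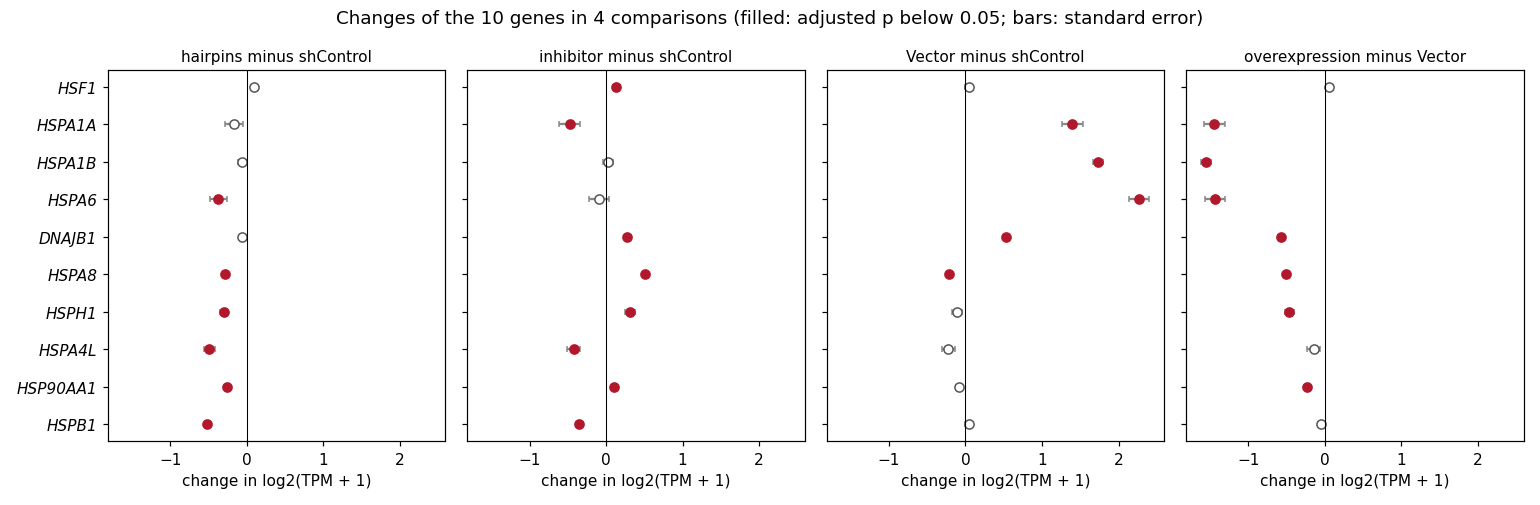
Differences in log2(TPM + 1) (horizontal axes) of the 10 genes (vertical axis) in 4 comparisons, with bars for the standard error of the limma fit and filled points for an adjusted p below 0.05. Filled points of HSPA6 are descriptions with no weight as a test, since only its Vector and overexpression libraries reached 1 TPM. HSPA1B is at 1.74 in Vector against shControl and at -1.55 in overexpression against Vector, which share the Vector libraries.

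Vector against shControl compares the controls of the hairpin arm and of the cDNA arm. HSPA1B, HSPA1A and DNAJB1 rose, HSPA8 fell, HSPA6 was higher (a description, with no weight as a test) and the other 5 did not pass, where 29.3% of all tested genes were called, 21.4% higher and 7.86% lower. After rescaling by the median of ratios, which moved the median of all genes from 0.09 to -0.00, HSPH1, HSPA4L and HSP90AA1 also passed as lower. The same rescaling moved the split over all genes from 73.1% of calls higher to 42.9%, and quantile normalization shifted the median of all genes by -0.11 here and by -0.10 in overexpression against Vector. The rises of HSPA1B, HSPA1A and DNAJB1 passed under both scalings. Immediate early genes, which respond within minutes to stress and growth signals, also rose in this comparison. Of 8 tested (of 13 listed) 6 rose in Vector (75%, against 21.4% of all genes), with JUN at 1.07, DUSP1 at 0.70, ZFP36 at 0.62 and ATF3 at 0.33, and none fell (3 rose after the median of ratios). In overexpression against Vector, 2 of the 8 rose (25% against 26.6%) and 1 fell (12.5% against 10.3%), or 0 and 2 after the median of ratios. In the hairpins 5 fell (62.5% against 20.2%) and 1 rose (12.5% against 26.2%). With the inhibitor 5 fell (62.5% against 11.8%) and 1 rose (12.5% against 28%). The part of immediate early genes in the heat shock values was not tested.

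Overexpression was set against Vector to ask what more STK17B does. HSPA1B, HSPA1A, DNAJB1, HSPA8, HSPH1 and HSP90AA1 fell, HSPA6 was lower (also a description) and none of the 10 rose (none by the unadjusted limma p under 0.05 either), where 36.8% of all genes were called, 26.6% higher and 10.3% lower. HSPA1B fell by 1.55 (SE 0.066, adjusted p = 6.4e-07), HSPA1A by 1.44 (SE 0.134) and DNAJB1 by 0.57 (SE 0.039, adjusted p = 9.9e-06). The median of the 10, HSPA6 included, was -0.48 against 0.08 over all tested genes, and HSPA4L also passed under quantile normalization (-0.28) and the median of ratios (-0.24). The result splits by the control used. With the control columns exchanged, overexpression met the libraries here called shControl. HSPA1B was then higher at 0.19 (adjusted p = 0.035) and HSPA6 was at 0.83 (again a description), while HSPA1A (-0.05) and DNAJB1 (-0.04) did not pass. HSPA8 (-0.73), HSPH1 (-0.57) and HSP90AA1 (-0.32) stayed lower against that control too, and HSPA4L passed as lower (-0.37, adjusted p = 0.0040). The share of all calls that were higher in overexpression was 72.1%, against 46.3% under quantile normalization and 43.1% under the median of ratios.

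The hairpins were set against shControl to ask what less STK17B does. HSPB1, HSPA4L, HSPH1, HSPA8 and HSP90AA1 were lower, and HSPA6 was lower with every library compared under 1 TPM (a description). None of the 10 was higher (HSF1 alone by the unadjusted limma p under 0.05), where 46.3% of all genes were called, 26.2% higher and 20.2% lower. The median of the 10 was -0.28 against 0.03 over all genes. HSPA1A (-0.16), HSPA1B (-0.06) and DNAJB1 (-0.06) did not pass, although DNAJB1 did after the median of ratios (-0.10, adjusted p = 0.038) and HSPA1A did without shControl replicate 2 (-0.38) and turned to 0.05 without shControl replicate 1. With sh1 alone 5 of the 10 were lower, where 45% of all genes were called, 23.7% higher and 21.3% lower. With sh2 alone 6 were lower, HSPA6 included as a description, where 35.5% were called, 22% higher and 13.4% lower. Of these HSPH1 (-0.22) and HSPA6 (-0.44) were lost without either shControl library. Both were also lost without 1 of the sh2 libraries (replicate 1 for HSPH1, replicate 2 for HSPA6). Between the hairpins HSPA8 was 0.12 higher with sh2 and no other gene of the 10 was called, where 1.55% of all genes were called, 1.16% higher and 0.385% lower. Against the other control columns, 6117 of all 12731 tested genes were called in the hairpins. There 9 of the 10 were lower, HSPA6 included as a description, with HSPA1B at -1.79 and DNAJB1 at -0.59. With sh2 alone HSPA8 (-0.012, adjusted p = 0.70), HSPH1 (-0.11, adjusted p = 0.20) and HSPA4L (-0.21, adjusted p = 0.080) then no longer passed.

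The inhibitor, set against shControl to ask what follows from blocking the kinase, divided the group. HSPA8, HSPH1, DNAJB1, HSF1 and HSP90AA1 rose and HSPA1A, HSPA4L and HSPB1 fell, where 39.9% of all genes were called, 28% higher and 11.8% lower. HSF1 and HSP90AA1 did not pass under quantile normalization or the median of ratios, which left 3 higher and 3 lower. Those scalings moved the share of higher calls over all genes from 70.3% to 51.9% under quantile normalization and 55.9% under the median of ratios. Without shControl replicate 1 fewer of the 10 were called. HSPA1B (0.03) and HSPA6 (-0.09) did not pass. With the control columns exchanged HSPA1B passed as lower (-1.71). HSPA6 was then lower too (-2.36), a description, since that value rests on its high Vector libraries.

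The inhibitor and the hairpins were compared directly, which tests the difference between their effects because both were set against the same shControl libraries. HSPA8 was 0.80 higher with the inhibitor (SE 0.019, adjusted p = 1.1e-08), HSPH1 0.61, HSP90AA1 0.37, DNAJB1 0.34 and HSPB1 0.17 higher, where 52.6% of all genes were called, 30.9% higher and 21.6% lower. HSPA1A was 0.31 lower (adjusted p = 0.046), a call lost under 14 alternatives and at 0.01 for the summed pair. HSPA1B (0.08), HSPA4L (0.06) and HSF1 (0.04) did not pass. HSPA6, under 1 TPM in every library compared, did not pass either (0.28, adjusted p = 0.060). It passed under 5 alternatives, among them quantile normalization (0.46) and a pseudocount of 0.1 (0.83), which is given as a description. The knockdown difference minus the overexpression difference passed for HSPA1B, HSPA1A, DNAJB1, HSPA8, HSPB1 and HSPA4L, where 29.9% of all genes were called, 11.4% higher and 18.5% lower. HSPA1B (1.49), HSPA1A (1.28), DNAJB1 (0.51) and HSPA8 (0.22) were higher in it, and HSPB1 (-0.47) and HSPA4L (-0.34) were lower. In the hairpins HSPA1B (-0.06), HSPA1A (-0.16) and DNAJB1 (-0.06) had not passed, so their values here come mostly from the fall from Vector to overexpression. HSPA8 fell both in the hairpins (-0.29) and with overexpression (-0.51), so its value here means a smaller fall in the hairpins. HSPA6, whose value rests on its high Vector libraries, was at 1.06, and at 0.75 with a pseudocount of 0.1 (adjusted p = 0.19). The HSPA4L call was lost under 14 alternatives. With the control columns exchanged HSPA1B (-1.98), HSPA1A (-1.51), HSPA6 (-3.47) and DNAJB1 (-0.56) turned negative, HSPA8 stayed higher and HSPH1 passed as higher (0.38, adjusted p = 0.0033).

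Other genes of the network were read from lists by role, and the plot of list medians gives their counts. The shares of all tested genes to read them against were 26.2% higher and 20.2% lower in the hairpins, 28% and 11.8% with the inhibitor, 26.6% and 10.3% with overexpression and 21.4% and 7.86% in Vector. Where a list had no call in a direction, the unadjusted limma p under 0.05 gave none there either, except DNAJB2 and DNAJB4 higher and HSBP1 lower in Vector, and HSPA4 and HSP90AB1 higher with the inhibitor. Of 4 tested heat shock factors and binders of them, HSF4, a factor best known from the lens, rose from 8.75 to 15.2 TPM in the hairpins (0.73), to 16.6 TPM in Vector (0.85) and to 35.5 TPM with overexpression (1.05 over Vector), while the inhibitor stood at -0.16. HSF2 did not pass in any of these (-0.06 to 0.17). HSBP1, which binds the trimer of HSF1, rose in the hairpins (0.19) and with the inhibitor (0.31). Of 6 other HSP70, HSP110 and HSP90 genes, HSPA13, which is not cytosolic, among them, 3 fell in the hairpins and none rose. HSP90AB1, the constitutive HSP90, was 1 of those that fell, from 1522 to 1325 TPM (-0.20). With overexpression 2 fell (HSP90AB1 -0.16 and HSPA4 -0.18). Of 9 other small heat shock genes only HSPB11, an intraflagellar transport subunit despite its name, was high enough to test, and it rose with the inhibitor (0.35) and with overexpression (0.30).

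J proteins were called about as often as all genes in the hairpins and with overexpression. Of 16 tested, 6 rose (37.5%, against 28% of all genes) and 1 fell (6.25% against 11.8%) with the inhibitor, or 4 and 2 after the median of ratios, with DNAJC9, a histone chaperone of replicating cells, at 0.55 and DNAJA1, a partner of HSPA8, rising from 264 to 352 TPM (0.41). In the hairpins 3 rose (18.8% against 26.2%) and 3 fell (18.8% against 20.2%, DNAJC2 -0.33, DNAJC8 -0.32, DNAJB4 0.31), and with overexpression 4 rose (25% against 26.6%) and 2 fell (12.5% against 10.3%, DNAJB2 0.50, DNAJC2 -0.32), or 4 and 4 after the median of ratios. None rose and 3 fell in Vector, where DNAJB1 rose. Of 10 exchange factors and co-chaperones of HSP70, 6 rose (60% against 28% of all genes) and none fell with the inhibitor (3 and 1 after the median of ratios), led by BAG2 (0.42, from 1.20 to 1.94 TPM) and STUB1, a ubiquitin ligase (0.32). BAG3, itself a strong HSF1 target, rose in Vector (0.28) and in the hairpins (0.18) and was at -0.02 with the inhibitor.

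HSP90 co-chaperones moved with the inhibitor, where 9 of 13 rose (69.2%, against 28% of all genes) and 1 fell (4 and 1 under quantile normalization, 5 and 1 under the median of ratios). TTC4 was at 0.48, CHORDC1 at 0.36, FKBP5 at 0.31 and SUGT1 at 0.24. With overexpression 3 rose (23.1% against 26.6%) and 4 fell (30.8% against 10.3%, or 0 and 7 after the median of ratios), among them AHSA1, which speeds the ATPase of HSP90, from 190 to 152 TPM (-0.33), and CHORDC1 (-0.41). In the hairpins FKBP4 (-0.34), NUDC (-0.17) and AHSA1 (-0.14) fell and CDC37L1 rose (0.22). Of 14 subunits of TRiC, the ring that folds actin and tubulin, and of prefoldin, which delivers clients to it, 8 fell (57.1%, against 20.2% of all genes) and 1 rose in the hairpins, with CCT7 and TCP1 at -0.32. With overexpression 10 fell (71.4% against 10.3%) and none rose (PFDN4 -0.46, PFDN6 -0.29), and in Vector 7 fell (50% against 7.86%) and none rose. With the inhibitor 7 rose (50% against 28%) and none fell (CCT2 0.44, from 230 to 312 TPM), and 3 rose after the median of ratios.

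Of 18 other heat-inducible targets of HSF1, 3 rose (16.7%, against 21.4% of all genes) and 7 fell (38.9% against 7.86%) in Vector, where HSPA1A, HSPA1B, HSPA6 and DNAJB1 rose. BAG3 (0.28) and SERPINH1, the collagen chaperone HSP47 (0.37), were among those that rose, and HSPE1 (-0.29), IER5 (-0.20) and FKBP4 (-0.19) fell. With overexpression 11 fell (61.1% against 10.3%) and 3 rose (16.7% against 26.6%), with CHORDC1 at -0.41, UBB, a polyubiquitin gene, falling from 1464 to 1162 TPM (-0.33), and SERPINH1 at 0.31. In the hairpins 7 fell (38.9% against 20.2%) and 4 rose (22.2% against 26.2%). With the inhibitor 6 rose (33.3% against 28%) and 4 fell (22.2% against 11.8%), or 2 and 5 after the median of ratios, and SERPINH1 fell by 0.68. The list median was -0.10 in Vector, -0.16 with overexpression, -0.05 in the hairpins and 0.05 with the inhibitor, against 0.09, 0.08, 0.03 and 0.08 over all genes. This list shares genes with other lists here, BAG3, CHORDC1, AHSA1, FKBP4, DNAJA1, HSPD1 and HSPE1 among them, so the counts of the lists are not independent.

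Chaperones of other compartments were read for contrast with the cytosolic genes. Of 10 mitochondrial chaperones and proteases 8 fell in the hairpins (80%, against 20.2% of all genes) and none rose, with HSPD1, the chaperonin HSP60, going from 734 to 581 TPM (-0.34), its partner HSPE1 at -0.34 and TRAP1, the mitochondrial HSP90, at -0.32. With the inhibitor 3 rose and 2 fell (30% and 20%, against 28% and 11.8%), with LONP1 at -0.41 and DNAJA3 at 0.35. Of 12 chaperones of the endoplasmic reticulum 9 fell (75% against 20.2%) and 1 rose in the hairpins (SDF2L1 -0.38, CALR -0.33), 3 fell (25% against 11.8%) and 1 rose with the inhibitor, and 5 fell (41.7% against 10.3%) and none rose with overexpression. HSP90B1, the HSP90 of that compartment, fell with the inhibitor from 1081 to 797 TPM (-0.44), where its cytosolic relative HSP90AA1 was at 483 TPM against 449 TPM in shControl. The mean of HSP90B1 was also lower with sh1 (864 TPM) and sh2 (959 TPM) than in shControl, and lower with overexpression (823 TPM) than in Vector (1149 TPM).

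**Figure D4:**
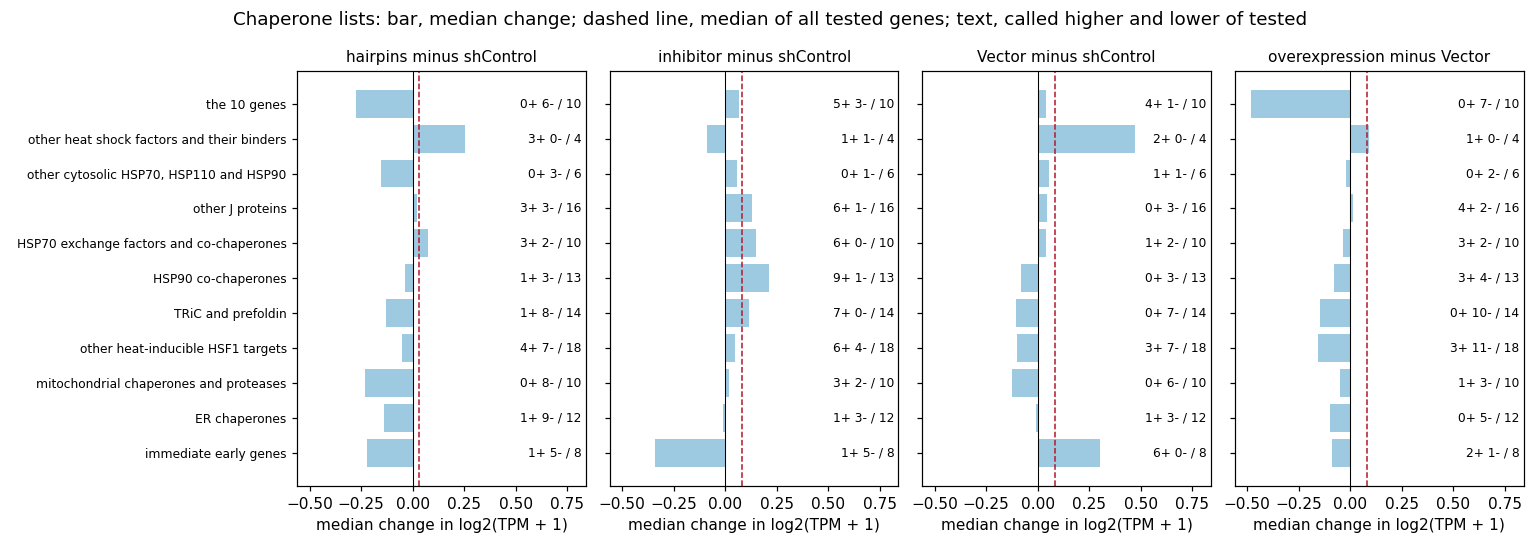
Median difference in log2(TPM + 1) (bars, horizontal axes) of the 10 genes and of 10 lists (vertical axis) in 4 comparisons, with a dashed line at the median of all 12731 tested genes and text giving how many were called higher (+) and lower (-) of those tested. The 10 genes have the lowest median in overexpression against Vector (-0.48), and immediate early genes have a median of 0.30 in Vector against shControl. HSPA6 is included in the counts and medians of the 10 as a description.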

How the data were processed

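Poly(A) RNA of 12 KMS11 libraries was sequenced after RNeasy extraction and stranded DNBSEQ library preparation, per the labels' protocols. The authors deposited TPM per gene and library. RSEM 1.3.1 and Bowtie2 2.3.4.3, HISAT, the GRCh38.p13 build and DESeq2 1.4.5 are listed in the submitters' processing notes, with no roles. Counts were not used here, depth is unknown, and precision rests on 2 libraries per group. The 10 genes and the lists of related genes were chosen with earlier results of these data known.

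From the deposited TPM, log2(TPM + 1) was fitted with limma 3.58.1 in R 4.3.3 over all 12731 genes that reached 1 TPM in 2 or more libraries, with a mean for each of 6 groups, eBayes with trend and Benjamini-Hochberg adjustment within each of 9 comparisons. A call is an adjusted p below 0.05, two-sided, and the scale understates changes of low genes. With 2 libraries a group, a permutation test could not pass the threshold and none was run. Named genes outside the 10 are up to 4 called members of each list with the largest change per comparison, up to 2 not called, and the 5 genes most like HSF1, HSPA8, HSPB1 and DNAJB1. On simulated data the fit recovered 88.1% of changes of 0.5 log2 units for the inhibitor and for overexpression, 98.5% for the hairpins and 95.5% for Vector. These changes were put into 67 of 12731 genes, all above about 5 TPM on average, with independent normal noise. The rates therefore do not cover low genes such as HSPA6, and far fewer genes were changed than were called in the real comparisons with a control. Gene positions come from GENCODE on GRCh38 and promoter windows from RefSeq on GRCh38.p14.

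Other settings tried were a filter at 5 TPM or none, pseudocounts of 0.5 and 0.1, scaling by quantile normalization, by the median of ratios or with the 20 most abundant genes removed, a fit of only the groups compared, eBayes without trend, robust eBayes, a replicate block, leaving out each library, exchanging the control columns and summing HSPA1A with HSPA1B. Leaving out both Vector libraries was chosen after seeing the data.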

Additional observations from a re-analysis of the deposited data

Results flagged for a closer look

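HSPA8 was flagged because its fall against shControl differed between the hairpins, by a test of that difference. It stood at 1197 and 1168 TPM with sh1 and at 1269 and 1298 TPM with sh2, so sh2 was higher by 0.12 log2 units (SE 0.022, adjusted p = 0.040 with limma and Benjamini-Hochberg adjustment, both sh2 libraries above both sh1 libraries). Of all tested genes 1.55% were called in this comparison, and of the 10 genes HSPA8 alone. STK17B itself was at 11.8 TPM with sh1 and 14.6 TPM with sh2 (adjusted p = 0.12). The HSPA8 call was lost under 19 of its alternatives, among them the median of ratios and leaving out any library of either hairpin, with adjusted p from 0.030 to 0.23 over all alternatives, including those that kept the call.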

How the results depend on the processing

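The directions of HSPA8, HSPH1, HSP90AA1 and HSPB1 in the hairpins held under every alternative run. Those of the 7 genes lower in overexpression, HSPA6 included as a description, also held, except HSPA1B and HSPA6 under the exchange of the control columns. Under that exchange HSPA1A (-0.05) and DNAJB1 (-0.04) kept their sign but did not pass. Depth is unknown, so counting error could not be estimated, also for the values that rest on the fewest transcripts, those of HSPA6 and HSPA1A. Replicate numbers in the titles did not pair the libraries, since deviations from group means correlated from -0.10 to 0.14 over 15 pairs of groups and exceeded 0.1 in 1. With the replicate block, calls between the hairpins went from 197 to 114 and those of the 10 genes there from 1 to 0, HSPA1A in the inhibitor against the hairpins (-0.31) and HSPA4L in the knockdown minus overexpression difference (-0.34) no longer passed, and no other call of the 10 changed.

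Between the hairpins (sh2 minus sh1), 197 genes were called, and 114 without a filter, 331 at 5 TPM, 97 after the median of ratios, 23 with only the groups compared, 21 without trend, 107 without both Vector libraries and 14 to 192 with a library left out. The call of HSPA8 there, 1 gene of the 10, became 0 under all of these except the filter at 5 TPM, and without the 20 most abundant genes. The comparison of Vector with shControl called 2099 to 3878 genes with a library left out. The count was lowest without Vector replicate 2 and low without shControl replicate 1 (2107) or 2 (2472). After the median of ratios 8 of the 10 were called there, HSPA6 included as a description. The inhibitor called fewer of the 10 with some of the libraries left out.

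With the control columns exchanged, 7468 of 12731 tested genes were called in overexpression and 7605 in the knockdown minus overexpression difference. With sh1, 9 of the 10 genes were then called, HSPA6 included as a description, where 5959 of all tested genes were. The Vector comparison then only changes sign, giving HSPA6 -2.27, HSPA1B -1.74, HSPA1A -1.40, DNAJB1 -0.53, HSF1 -0.040, HSPB1 -0.041, HSPA4L 0.23, HSPA8 0.22, HSPH1 0.11 and HSP90AA1 0.086. In the inhibitor DNAJB1 was at -0.26 and HSPA1B at -1.71, and in overexpression HSPA1B was at 0.19 and HSPA6 at 0.83. In the knockdown minus overexpression difference DNAJB1 was at -0.56, HSF1 at -0.042, HSP90AA1 at 0.14, HSPA1A at -1.51, HSPA1B at -1.98, HSPA4L at 0.11 and HSPA6 at -3.47.

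The other changes of sign were in small values, of which only HSP90AA1 in the inhibitor and HSPA1A in the inhibitor against the hairpins had been called, and the cause was not tested. After the median of ratios HSPA1B was at -0.037 in the inhibitor, HSF1 at -0.051 in overexpression, -0.063 in Vector and -0.023 between the hairpins, HSPB1 at -0.063 in Vector and HSP90AA1 at 0.042 in the knockdown minus overexpression difference. After quantile normalization HSP90AA1 was at -0.0079 and HSPA1B at -0.079 in the inhibitor, HSF1 at -0.031 in overexpression, -0.017 between the hairpins and -0.055 in the inhibitor against the hairpins, and HSP90AA1 at 0.020 in the knockdown minus overexpression difference. Without the 20 most abundant genes HSPA1B was at 0.013 with sh1 and HSF1 at -8.8e-06 between the hairpins. For the summed HSPA1A and HSPA1B the inhibitor was at -0.068, and at 0.014 against the hairpins, where HSPA1A was at -0.31. With a library left out, HSPA1A ran from -0.38 to 0.050 in the hairpins and from -0.30 to 0.13 with sh1, and HSPA1B from -0.045 to 0.031 with sh1, from -0.076 to 0.13 in the inhibitor and from -0.017 to 0.19 in the inhibitor against the hairpins. HSPA4L ran from -0.037 to 0.17 in the inhibitor against the hairpins, and HSF1 from -0.0015 to 0.081 in Vector, from -0.029 to 0.056 between the hairpins and from -0.0037 to 0.078 in the knockdown minus overexpression difference.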
